A study of Mus musculus with 8 samples.

Results

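The genes described here are 33 genes that the liver's parenchymal cells, the hepatocytes, use to make plasma proteins or to run their own metabolism, read in preparations of sorted hepatic stellate cells. A gene was taken where a probe set (the group of probes that reads a transcript) was annotated to that gene symbol alone, and where a gene had several of them, the brightest on average was kept. Of the 33 genes, 31 were measured this way, among 19938 genes in all. Ass1 was annotated only on probe sets shared with other symbols, and Gc was not analysed here. Stellate cells wrap the liver sinusoids as pericytes and store vitamin A, and the study compared them after recovery from liver injury with cells of uninjured livers. The reverted group (4 arrays) came from male Balb/c mice given 4 injections of carbon tetrachloride (CCl4), a hepatotoxin, dosed at 0.5 µl for every g of body weight with 2 injections a week, and then left for 45 days. The quiescent group (4 arrays) came from normal male Balb/c mice that carry no stated treatment. The labels do not say how many mice each array stands for, so the p-values describe the scatter between these 8 preparations, part of which may be technical. They put both groups at 18 weeks of age in a general statement and the reverted group at 16 weeks in another.

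Hepatocytes secrete albumin, apolipoproteins, fibrinogen and carriers of iron, heme and hormones into the blood, and they house the urea cycle, gluconeogenesis and the breakdown of amino acids. Their gene program is kept by a network of transcription factors that includes HNF4A, FOXA proteins and C/EBP proteins. Stellate cells lie against hepatocytes in the space of Disse and were here separated by density centrifugation and by sorting on retinoid autofluorescence, with lysis immediately afterwards.

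Values are log2 levels after RMA, a procedure that corrects background, normalizes arrays and summarises probes, so that a difference of 1 is a doubling of signal. The comparison is reverted minus quiescent in limma, a linear model fitted to all 19938 genes, with p-values adjusted over all of them by the Benjamini-Hochberg method, and a gene is called changed at an adjusted p under 0.05. All values rest on n = 4 arrays per group. The 27 measured stellate identity genes had a median level percentile of 99.5 among all genes, the 31 hepatocyte genes one of 51.7, the 25 sinusoidal endothelial genes 49.7, the 26 Kupffer and myeloid genes 28.9 and the 17 lymphocyte genes 17.6. Probe sets differ in how brightly they report, so these percentiles only place the lists on the scale. The markers of the labelled cell type thus read near the ceiling of the arrays, which can compress their differences. The medians of all 8 arrays lay between 7.66 and 7.74.

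Most of the hepatocyte genes were higher on average in the reverted group, but few differences passed the test. Of 31 genes, 28 had a higher mean in reverted cells and 3 a lower mean, where 46.4% of all genes had a higher mean. The median log2 change of the 31 genes was 0.34, and that of all genes was -0.01. In limma, Hp rose and Trf fell, so that 1 of 31 was called higher, beside 0.527% of all genes, and 1 was called lower, beside 0.186% of all genes. Both directions together made 2 of 31, beside 0.712% of all genes. At an unadjusted p under 0.05, 13 were higher, where the share of all genes was 8.56%, and 2 were lower, where it was 7.4%. In either direction 16% of all genes were under that p, the share that stands beside all such counts below. The 4 reverted arrays lay above all 4 quiescent arrays for 3 genes (Hp, Hpx and Apoa1), where this held for 4.64% of all genes. They lay below for 2 genes (Trf and Apoc1), where this held for 4.09% of all genes, and 8.73% of all genes had groups apart in either direction. For the other 26 genes the groups overlapped. In bulk preparations such as these, fewer cells of a type and less RNA per cell cannot be told apart.

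**Figure D1:**
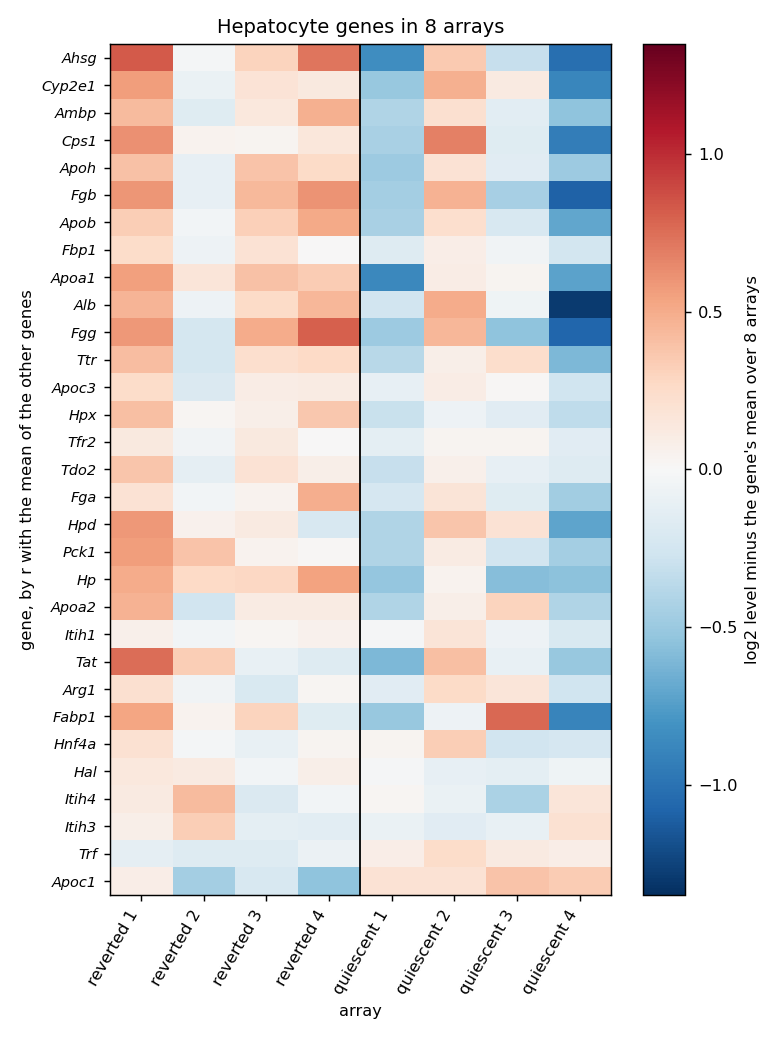
Each row is a hepatocyte gene and each column an array, reverted arrays on the left and quiescent arrays on the right of the black line, and the colour gives the log2 level minus the gene's own mean over 8 arrays. Rows run from the highest to the lowest Pearson r with the mean of the other 30 genes. Most rows are red in reverted array 1 and quiescent array 2 and blue in quiescent arrays 1 and 4, and the last rows do not follow.

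The 31 genes varied between arrays of the same group. The mean log2 level of the 31 genes was 9.04, 8.66, 8.79 and 8.84 in reverted arrays 1 to 4 and 8.36, 8.86, 8.60 and 8.20 in quiescent arrays 1 to 4. Quiescent array 2 thus lay above 3 of the 4 reverted arrays, and quiescent array 4 lay lowest of all 8. Reverted array 1 was the highest of the 8 arrays for 15 of the 31 genes, reverted array 4 and quiescent array 2 for 6 each, and reverted array 2 and quiescent array 3 for 2 each. Reverted array 1 also had the highest median over all genes, 8.145, where the other arrays had 8.084 to 8.124. Quiescent array 4 was the lowest array for 19 genes, quiescent array 1 for 5 and quiescent array 3 for 4. Within the quiescent group, array 2 exceeded array 4 for 27 of the 31 genes, with a median log2 difference of 0.60 and a maximum of 1.80 for Alb. These arrays had the highest and lowest quiescent mean of the same genes, so the direction of that count was set by their choice. For 26 of 31 genes the range among the 4 quiescent arrays was wider than the difference between the group means. A range over 4 values is often wider than a difference of means. The share of all genes for which it was wider was not computed, so whether the count is particular to this set cannot be said. The quiescent group had the larger SD for 22 genes, where it did for 58.2% of all genes. Without quiescent array 4 the median log2 change of the 31 genes was 0.19, against 0.34 with all arrays.

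Albumin, the main protein of plasma, shows this spread at the upper end of the scale. Alb had log2 levels of 12.59, 12.07, 12.39 and 12.58 in reverted arrays 1 to 4 and 11.88, 12.64, 12.08 and 10.84 in quiescent arrays 1 to 4. Quiescent array 2 held the highest value of all and quiescent array 4 the lowest, and the groups overlapped. The log2 change of Alb was 0.55 (SE 0.32, limma adjusted p = 0.417), and it ranged from 0.21 to 0.81 when each array was left out in turn. Summed on the linear scale, the 31 probe sets came to between 23050 and 28749 signal units in reverted arrays and between 18992 and 27907 in quiescent arrays. Fabp1, a fatty acid binding protein of hepatocyte cytosol, stood at 8.58, 8.10, 8.35 and 7.89 in reverted arrays and 7.55, 7.98, 8.83 and 7.17 in quiescent arrays. Its maximum lay in quiescent array 3 and not in quiescent array 2, and its log2 change was 0.35 (SE 0.31, adjusted p = 0.591). Without quiescent array 4 the change of Fabp1 was 0.11, and without quiescent array 3 it was 0.67.

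Among apolipoproteins, the protein parts of plasma lipoproteins, 5 of 6 had a higher mean in reverted cells and 0 passed the test in limma, where 4 had an unadjusted p under 0.05. Apoa1, the main protein of high density lipoprotein, had 10.64, 10.24, 10.48 and 10.43 in reverted arrays and 9.22, 10.19, 10.12 and 9.36 in quiescent arrays. All reverted values lay above all quiescent values, with quiescent arrays 2 and 3 just below the lowest reverted array. Its log2 change was 0.72 (SE 0.21, adjusted p = 0.169). Apob, the structural protein of very low density lipoprotein, had 8.69, 8.32, 8.68 and 8.88 in reverted arrays and 7.92, 8.58, 8.15 and 7.66 in quiescent arrays, a log2 change of 0.57 (SE 0.19, adjusted p = 0.201). For Apoh, also called beta-2-glycoprotein I, the change was 0.47 (adjusted p = 0.230), and for Apoa2 and Apoc3 it was 0.22 (adjusted p = 0.580) and 0.13 (adjusted p = 0.540).

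Apoc1, an apolipoprotein that inhibits lipid transfer and lipoprotein uptake, went the other way. It had 10.83, 10.28, 10.52 and 10.20 in reverted arrays and 10.93, 10.93, 11.13 and 11.08 in quiescent arrays. Every reverted array lay below every quiescent array, and reverted array 1, which held more of the hepatocyte maxima than any other array, was the nearest to the quiescent values. The log2 change was -0.56 (SE 0.12, limma adjusted p = 0.0948), which did not pass, and without reverted array 1 it was -0.68 with an adjusted p of 0.0214. Its annotated neighbours on chromosome 7 are Apoc4 and Apoe, which belong to the same gene cluster. Apoe stood at 14.17 ± 0.01 in reverted and 14.24 ± 0.01 in quiescent cells (SD, n = 4), a log2 change of -0.06 (limma adjusted p = 0.381) near the top of the scale. Apoc4 differed by -0.11 on the log2 scale (adjusted p = 0.623).

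Of the 6 measured plasma carriers, 1 rose, 1 fell and 4 did not pass. Hp encodes haptoglobin, which binds free hemoglobin and rises in plasma in the acute phase response. Hp had 8.45, 8.22, 8.23 and 8.48 in reverted arrays and 7.42, 7.99, 7.37 and 7.39 in quiescent arrays. Its 4 reverted values lay above all quiescent values, and quiescent array 2 stood apart from the other quiescent arrays on the side of the reverted ones. The group means were 8.34 ± 0.14 in reverted and 7.54 ± 0.30 in quiescent cells (SD, n = 4), or 1.74-fold (log2 change 0.80, SE 0.14, limma adjusted p = 0.0373). The log2 change stayed between 0.74 and 0.95 with any array left out. Its adjusted p was 0.00269 without quiescent array 2 and between 0.0575 and 0.130 without any of the other 7 arrays, so that the call was lost without any of those 7.

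Hpx encodes hemopexin, which clears free heme. Hpx had 9.52, 9.14, 9.19 and 9.47 in reverted arrays and 8.81, 9.04, 8.95 and 8.77 in quiescent arrays. The groups did not overlap, and the log2 change of 0.44 (SE 0.10, adjusted p = 0.0981) did not pass. Ahsg, encoding the calcium-binding plasma protein fetuin-A, had the largest log2 change of the 31 genes, 0.91 (SE 0.30, adjusted p = 0.198). Its values were 10.10, 9.24, 9.57 and 9.99 in reverted arrays and 8.43, 9.62, 8.96 and 8.25 in quiescent arrays. Quiescent array 2 lay within the reverted range, and the SDs were 0.40 in reverted and 0.62 in quiescent cells. Ambp, the precursor of alpha-1-microglobulin and of bikunin, differed by 0.44 (adjusted p = 0.291), and the thyroxine carrier gene Ttr differed by 0.34 (adjusted p = 0.415).

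Trf encodes transferrin, which carries iron in plasma, and it was the gene that fell. It had 12.27, 12.22, 12.22 and 12.31 in reverted arrays and 12.48, 12.64, 12.51 and 12.48 in quiescent arrays. The groups did not overlap, and the arrays within a group lay close together. The means were 12.26 ± 0.04 in reverted and 12.53 ± 0.08 in quiescent cells (SD, n = 4), or 0.827-fold (log2 change -0.27, SE 0.05, limma adjusted p = 0.04). The adjusted p was 0.0459 without quiescent array 4 and between 0.0657 and 0.144 without any of the other 7 arrays. The log2 change itself stayed between -0.29 and -0.24 with any array left out. Tfr2, the receptor by which hepatocytes sense iron-loaded transferrin, had 7.13, 6.95, 7.13 and 7.01 in reverted arrays and 6.87, 7.04, 7.04 and 6.85 in quiescent arrays, a log2 change of 0.10 (SE 0.06, adjusted p = 0.435).

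**Figure D2:**
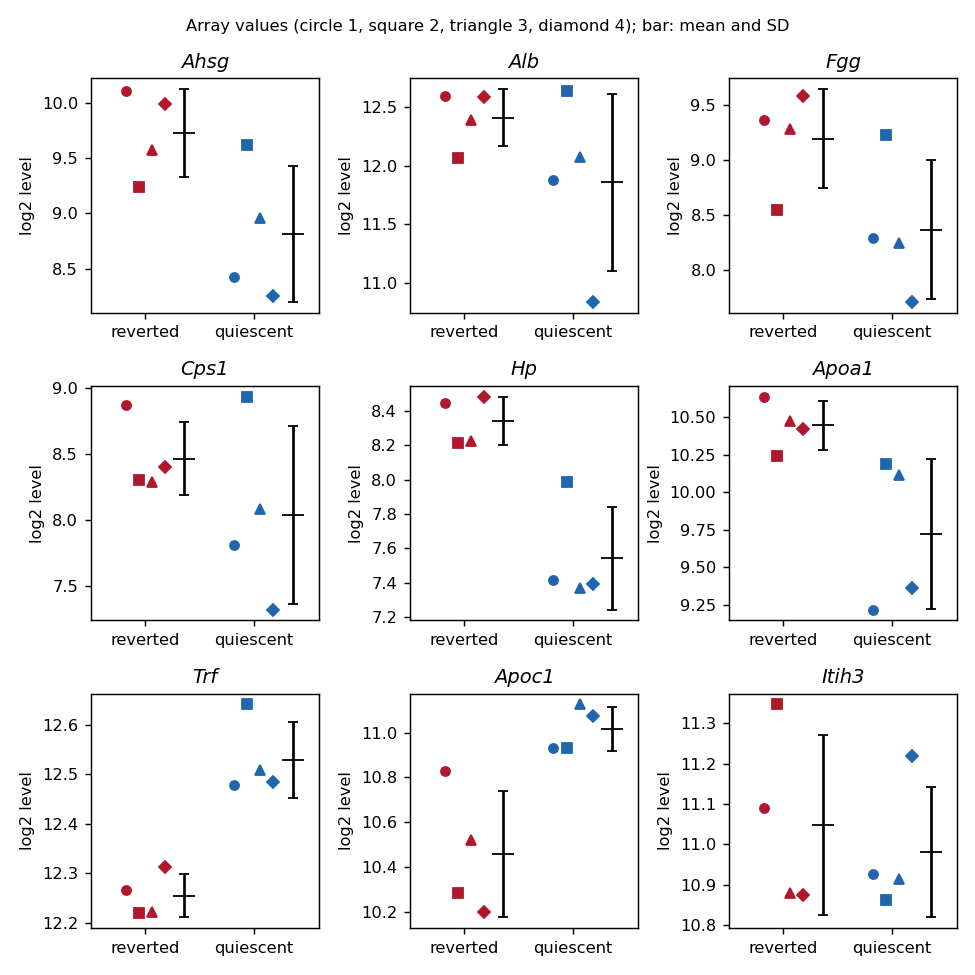
Log2 levels of 9 hepatocyte genes in each array, with reverted arrays in red and quiescent arrays in blue, a symbol for each replicate number, and the group mean with its SD (n = 4) in black. Quiescent array 2 (blue square) lies with the reverted arrays for Ahsg, Alb, Fgg and Cps1, while the groups separate for Hp, Apoa1, Trf and Apoc1. Each panel has its own log2 axis, which does not start at 0.

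The 3 fibrinogen chains, which assemble into the clotting protein of plasma, moved together from array to array. Fgg had 9.37, 8.54, 9.28 and 9.58 in reverted arrays and 8.28, 9.23, 8.24 and 7.70 in quiescent arrays. Fgb had 9.72, 9.02, 9.57 and 9.74 in reverted arrays and 8.67, 9.60, 8.68 and 8.04 in quiescent arrays. In both genes quiescent array 2 lay within the reverted values and reverted array 2 was the lowest of its group. Over the 8 arrays Fgb and Fgg had a Pearson r of 0.99, and Fga had one of 0.93 with Fgb and 0.95 with Fgg. The log2 changes were 0.83 for Fgg (SE 0.31, adjusted p = 0.253), 0.77 for Fgb (SE 0.29, adjusted p = 0.256) and 0.34 for Fga (SE 0.14, adjusted p = 0.293). Fga has 2 probe sets, and with their mean its change was 0.14 (adjusted p = 0.526). Correlations over arrays are given as descriptions, with no p, since the 8 points fall into 2 groups and every gene of an array shares the same preparation.

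In the annotation, Fgg, Fga and Fgb are direct neighbours on chromosome 3, and the protein-coding gene next to Fgg on the other side is Lrat, the enzyme by which stellate cells store retinol as esters. Lrat stood at 14.05 ± 0.05 in reverted and 14.05 ± 0.08 in quiescent cells (SD, n = 4), a log2 change of 0.00 (adjusted p = 0.997). Its r with the mean of the 31 hepatocyte genes was -0.40, where Fgg had 0.90. Lrat lies at level percentile 99.9, where differences can be compressed.

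The inter-alpha-trypsin inhibitor heavy chains, a family of plasma proteins, are also neighbours, in the order Itih4, Itih3 and Itih1 on chromosome 14. They did not move together. Itih3 had 11.09, 11.35, 10.88 and 10.87 in reverted arrays and 10.93, 10.86, 10.92 and 11.22 in quiescent arrays. Its highest quiescent value lay in array 4, where most hepatocyte genes were lowest, and its lowest in array 2. Itih4 had 9.86, 10.16, 9.55 and 9.70 in reverted arrays and 9.76, 9.65, 9.31 and 9.90 in quiescent arrays, with the same pair of arrays, reverted 2 and quiescent 4, highest in their groups. Itih1 had 7.03, 6.92, 6.98 and 7.01 in reverted arrays and 6.94, 7.13, 6.88 and 6.75 in quiescent arrays, with array 2 the highest and array 4 the lowest of the quiescent group. The r over 8 arrays was 0.82 between Itih3 and Itih4, -0.54 between Itih1 and Itih3 and -0.16 between Itih1 and Itih4. None of the 3 passed limma, with log2 changes of 0.07 for Itih3 (adjusted p = 0.794), 0.16 for Itih4 (adjusted p = 0.608) and 0.06 for Itih1 (adjusted p = 0.706), where all 3 were above an unadjusted p of 0.05.

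The 250 bases before the annotated start are shown for 4 genes that moved with the rest of the set (Alb, Ahsg, Fga and Fgb) and for both neighbours that did not (Itih3 and Itih4). They are from RefSeq, build GRCm38.p6, 5′ to 3′ on the strand of the gene. Capitals mark the letters TTGCNNAA or its reverse complement TTNNGCAA, a core that C/EBP factors bind. The choice of these 6 genes sets matches beside followers only: Fgg, Apoa1, Ambp, Apoh and Cyp2e1 moved with the set and hold no such match, and Hal, which did not, holds one.
Alb, chr5:90460620-90460869, plus strand: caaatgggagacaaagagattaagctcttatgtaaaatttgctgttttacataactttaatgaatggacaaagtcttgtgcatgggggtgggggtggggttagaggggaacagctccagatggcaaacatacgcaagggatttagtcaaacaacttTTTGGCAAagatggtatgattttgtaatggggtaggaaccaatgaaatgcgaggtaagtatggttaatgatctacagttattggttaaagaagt
Ahsg, chr16:22891765-22892014, plus strand: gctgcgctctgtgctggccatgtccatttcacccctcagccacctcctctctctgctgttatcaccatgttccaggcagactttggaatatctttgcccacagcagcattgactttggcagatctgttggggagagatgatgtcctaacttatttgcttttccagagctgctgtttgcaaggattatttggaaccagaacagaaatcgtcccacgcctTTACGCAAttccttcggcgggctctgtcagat
Fga, chr3:83025903-83026152, plus strand: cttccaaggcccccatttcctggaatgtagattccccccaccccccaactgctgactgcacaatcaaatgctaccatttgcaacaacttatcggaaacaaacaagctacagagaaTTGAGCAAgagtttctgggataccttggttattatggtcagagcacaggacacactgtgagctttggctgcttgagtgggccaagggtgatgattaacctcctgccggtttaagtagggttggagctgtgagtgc
Fgb, chr3:83049864-83050113, minus strand: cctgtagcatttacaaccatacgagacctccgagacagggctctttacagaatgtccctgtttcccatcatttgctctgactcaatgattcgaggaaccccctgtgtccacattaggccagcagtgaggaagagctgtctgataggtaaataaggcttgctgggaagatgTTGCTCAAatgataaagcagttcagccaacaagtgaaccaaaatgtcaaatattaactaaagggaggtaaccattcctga
Itih3, chr14:30923588-30923837, minus strand: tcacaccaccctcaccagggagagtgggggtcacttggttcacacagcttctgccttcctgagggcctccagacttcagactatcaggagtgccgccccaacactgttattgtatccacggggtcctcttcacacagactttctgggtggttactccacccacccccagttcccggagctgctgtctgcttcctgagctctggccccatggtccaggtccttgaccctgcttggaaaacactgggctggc
Itih4, chr14:30886226-30886475, plus strand: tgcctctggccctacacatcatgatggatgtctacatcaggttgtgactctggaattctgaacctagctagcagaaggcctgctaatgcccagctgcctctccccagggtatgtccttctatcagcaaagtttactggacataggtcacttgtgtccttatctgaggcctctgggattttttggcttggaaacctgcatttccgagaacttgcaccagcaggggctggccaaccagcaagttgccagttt

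A window of this kind was found for 26 of the 33 genes, and genes with several annotated starts have several, 30 windows in all. TTGCNNAA, searched like all motifs here on both strands, was in 9 of the 30 windows, those of Ahsg, Alb, Apoa2, Apob, Fabp1, Fga, Fgb, Hal and Hpx, where 9.56% of all 32851 windows hold it. In Fgb the match runs from base -80 to base -73 before the start, and in Alb from base -94 to base -87. The TATA box letters TATAAA were in 6 windows (Apoa2, Apob, Cyp2e1, Fabp1, Hal and Tdo2), where 12.4% of all windows hold them. The FOXA core TGTTTAC was in 2 (Apoa2 and Apoh), where 3.17% do. The HNF4 letters CAAAGTCCA were in 0, where 0.384% do. The 6 sequences shown hold no match to the other motifs, and a match is a description of letters, not of a bound site.

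Among metabolic enzymes, 0 of 9 passed the test in limma, where 3 had an unadjusted p under 0.05 (Pck1, Hal and Tdo2). Cps1, which commits ammonia to the urea cycle in periportal hepatocytes, had 8.87, 8.30, 8.28 and 8.40 in reverted arrays and 7.81, 8.93, 8.08 and 7.32 in quiescent arrays. The highest and the lowest of the 8 values both lay in the quiescent group, in arrays 2 and 4. Cyp2e1, the pericentral cytochrome P450 that turns CCl4 into its toxic radical, had 9.31, 8.66, 8.94 and 8.88 in reverted arrays and 8.24, 9.23, 8.87 and 7.86 in quiescent arrays, with the same order within the quiescent group. Cps1 and Cyp2e1, although expressed at opposite ends of the liver lobule, had an r of 0.95 over the 8 arrays. Their log2 changes were 0.43 (SE 0.29, adjusted p = 0.487) and 0.40 (SE 0.27, adjusted p = 0.482). Without quiescent array 4 they were 0.19 and 0.17, and without quiescent array 2 they were 0.73 and 0.62.

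Arg1, the enzyme that releases urea, had nearly equal group means. It had 7.25, 6.98, 6.83 and 7.06 in reverted arrays and 6.88, 7.30, 7.20 and 6.77 in quiescent arrays, and limma gave a difference of -0.0045 (SE 0.13, adjusted p = 0.988). This small difference turned to 0.036 after quantile normalization. Pck1, the enzyme that controls gluconeogenesis, and Tat, which starts the breakdown of tyrosine, are both induced by fasting hormones. Pck1 had 9.06, 8.87, 8.54 and 8.50 in reverted arrays and 8.09, 8.61, 8.24 and 8.04 in quiescent arrays, and Tat had 8.98, 8.55, 8.12 and 8.05 in reverted arrays and 7.62, 8.63, 8.12 and 7.72 in quiescent arrays. In both genes reverted arrays 1 and 2 lay above reverted arrays 3 and 4. Reverted array 2 was the lowest of its group for 16 of the 19 genes of secreted proteins and for 4 of the 12 genes of intracellular or membrane proteins. That split was not tested, the share of all genes was not computed, and the genes of an array share the same preparation. Pck1 and Tat had an r of 0.93 over the 8 arrays and of 0.98 once each group's mean was removed, with log2 changes of 0.50 (adjusted p = 0.174) and 0.41 (adjusted p = 0.447).

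The remaining enzymes gave smaller differences. Fbp1, a gluconeogenic phosphatase and the dimmest gene of the set, had 6.70, 6.39, 6.65 and 6.46 in reverted arrays and 6.28, 6.54, 6.40 and 6.20 in quiescent arrays, a log2 change of 0.19 (adjusted p = 0.333). Tdo2, which opens the tryptophan ring, had 7.23, 6.73, 7.06 and 6.94 in reverted arrays and 6.55, 6.93, 6.74 and 6.68 in quiescent arrays, a log2 change of 0.26 (adjusted p = 0.287). In both of these dim genes quiescent array 2 was the highest of its group. Hpd, the dioxygenase of tyrosine breakdown, differed by 0.27 on the log2 scale (adjusted p = 0.599), and the histidine ammonia-lyase gene Hal by 0.15 (adjusted p = 0.195). Hnf4a, a transcription factor of the hepatocyte program, had 8.22, 7.99, 7.91 and 8.06 in reverted arrays and 8.05, 8.35, 7.76 and 7.78 in quiescent arrays. These overlap throughout, and its log2 change was 0.06 (SE 0.13, adjusted p = 0.834), which turned negative with array weights.

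**Figure D3:**
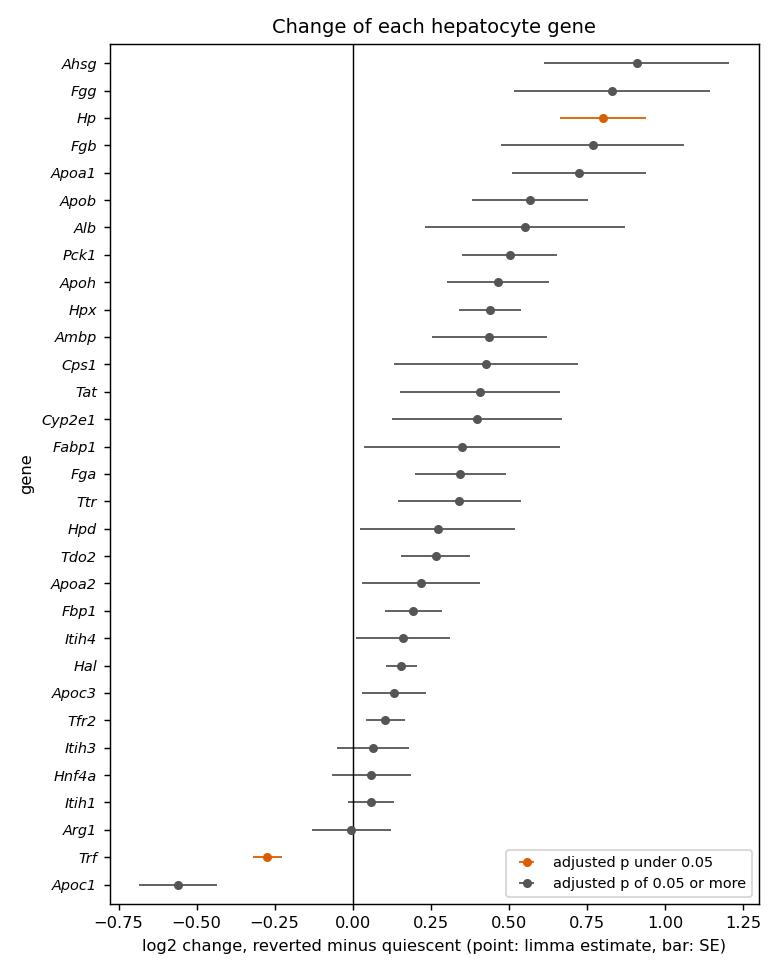
Log2 change (reverted minus quiescent, limma estimate with its SE, n = 4 arrays per group) of each of the 31 hepatocyte genes, in orange where the adjusted p was under 0.05. Hp (0.80) and Trf (-0.27) are the called genes, and Ahsg (0.91) and Apoc1 (-0.56) have the largest changes in each direction without passing the test.

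The 19 genes of secreted proteins had log2 changes between -0.56 and 0.91 with a median of 0.44, and 17 of them had a higher mean in reverted cells. The 12 genes of intracellular or membrane proteins had changes between -0.0045 and 0.50 with a median of 0.27, and 11 had a higher mean. Dimmer probe sets can show smaller changes on the RMA scale, and the difference between the medians was not tested.

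The genes were also compared for how they moved together over the arrays. Each gene was set against the mean of the other 30 over the 8 arrays, and 23 of 31 had a Pearson r over 0.8. Of all 19938 genes, 0.983% reached that r with the mean of the 31. With each group's own mean removed, so that only arrays of the same group are compared, 19 of 31 were over 0.8, where 3.56% of all genes were. The median r over all 465 pairs of the genes was 0.68 over the 8 arrays and 0.67 with group means removed. Ahsg (r = 0.97), Cyp2e1 (0.96), Ambp (0.94), Cps1 (0.94) and Apoh (0.94) lay closest to the mean of the others. Without quiescent array 4 the number over 0.8 was 15, the lowest count with an array left out.

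Against the rest stood Apoc1 (r = -0.44), Trf (-0.37), Itih3 (-0.32) and Itih4 (-0.15), and 47.3% of all genes had a negative r. These 4 fell into different patterns once the group means were removed. Trf then had an r of 0.795 with the other genes, just under 0.8, while its group mean went the other way. It did not keep their order within groups. The mean of the 31 genes was highest in reverted array 1 and lowest in quiescent array 4. Among reverted arrays Trf was highest in array 4, and among quiescent arrays it was lowest in array 1. Itih3 and Itih4 remained negative, at -0.57 and -0.49, and Apoc1 was at 0.24. Hal, with r of 0.39 over all arrays and -0.22 within groups, also did not follow. Hal had 7.96, 7.94, 7.78 and 7.90 in reverted arrays and 7.80, 7.71, 7.69 and 7.76 in quiescent arrays, a narrow range.

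**Figure D4:**
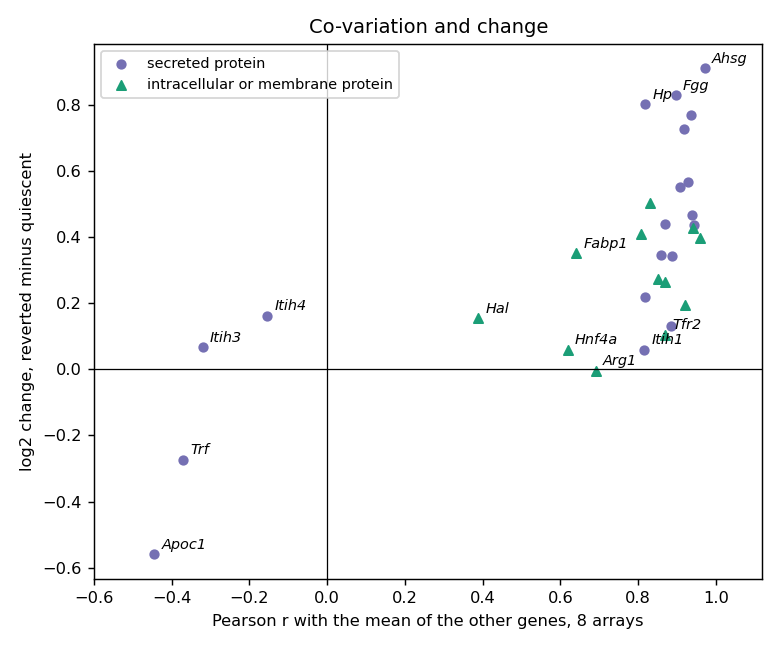
Each point is a hepatocyte gene, with its Pearson r with the mean of the other 30 genes over 8 arrays on the horizontal axis and its log2 change, reverted minus quiescent, on the vertical axis. Circles are secreted and triangles intracellular or membrane proteins. Most genes lie at r over 0.8 with a positive change, and Apoc1, Trf, Itih3 and Itih4 lie left of 0.

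Of the 12 named genes outside the set with the highest r with its mean, Plg (r = 0.98), encoding plasminogen, led, and 5 of the 12 were in the hepatocyte lists given below (Plg, Rbp4, Mup3, Cyp2c29 and Slc38a4). Mug1 (0.96) and Pzp (0.95) encode plasma protease inhibitors of the macroglobulin family. Aox3 (0.96) is an aldehyde oxidase, Cyp2d26 (0.95) a cytochrome P450 and Slc7a2 (0.95) a cationic amino acid transporter. Vstm5 (0.96) and Galnt12 (0.95), a glycosyltransferase, lay at level percentiles 24.0 and 18.3. None of the 12 was called in limma, and their log2 changes ran from 0.08 for Vstm5 to 0.68 for Mug1, with 6 at an unadjusted p under 0.05 (Plg, Mug1, Rbp4, Slc7a2, Pzp and Mup3). Among the 100 genes most alike, 35 were in the hepatocyte lists, which hold 0.894% of the genes outside the set.

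Over the 8 arrays the mean of 45 other secreted hepatocyte proteins had an r of 0.97 with the mean of the 31 genes, and the mean of 52 other enzymes one of 0.95. These hepatocyte genes outside the set were read from lists of plasma proteins, enzymes, transporters and transcription factors. The mean of the transporter and receptor list had an r of 0.89, and that of the transcription factor list one of 0.51. The acute phase list had 0.87, the periportal list 0.97 and the pericentral list 0.83. Single genes followed less closely than these means. Their median r was 0.67 in the secreted list, 0.70 in the enzyme list and 0.61 in the transporter and receptor list. It was 0.08 for transcription factors, 0.31 for acute phase genes, 0.71 for periportal genes and 0.21 for pericentral genes. For the mean of all genes the r was 0.47. Of 45 other secreted hepatocyte proteins 1 rose, 0 fell and 44 did not pass, with 32 higher means and a median log2 change of 0.07. In limma 15 of the 45 had an unadjusted p under 0.05, beside 16% of all genes. The gene that rose was Vtn, encoding the adhesive plasma protein vitronectin, with 9.38, 9.18, 9.44 and 9.92 in reverted arrays and 8.58, 8.79, 8.49 and 8.17 in quiescent arrays (log2 change 0.97, SE 0.17, limma adjusted p = 0.0373). In this list the reverted arrays lay above all quiescent arrays for 5 of 45 genes and below them for 2, beside the 4.64% and 4.09% of all genes given above. The prothrombin gene F2 (0.41, adjusted p = 0.119) and the antiplasmin gene Serpinf2 (0.23, adjusted p = 0.139) were among the 5 and did not pass. The complement gene C6 (0.18, adjusted p = 0.169) was too, with an r of 0.22 with the mean of the 31 genes over all arrays and of -0.63 within groups. Of this list 16 of 45 had an r over 0.8 with the mean of the 31 genes. Of 52 other metabolic enzymes 0 passed in limma and 6 had an unadjusted p under 0.05, beside 16% of all genes. Their median change was 0.03, and 19 had an r over 0.8. G6pc, which releases glucose from the liver (log2 change 0.54, adjusted p = 0.153, r = 0.93), had the smallest p among them.

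Of 27 membrane transporters and receptors, 1 rose and 26 did not pass, with a median change of -0.01, and 6 had an r over 0.8. The gene that rose was Abcb11, the bile salt export pump, with 7.95, 7.85, 7.79 and 7.64 in reverted arrays and 6.82, 7.22, 7.07 and 7.03 in quiescent arrays (log2 change 0.77, SE 0.09, limma adjusted p = 0.00829). Its groups did not overlap, and its highest quiescent value was in array 2. The bile acid importer gene Slc10a1 did not pass (0.23, adjusted p = 0.263, r = 0.92). Of 18 hepatocyte transcription factors other than Hnf4a, 0 passed in limma, 0 had an unadjusted p under 0.05 and 1 had an r over 0.8.

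Of 17 acute phase genes outside the set, Serpina3n, a protease inhibitor, rose and 16 did not pass. Serpina3n had 9.78, 9.81, 9.50 and 9.88 in reverted arrays and 8.53, 9.06, 8.64 and 8.62 in quiescent arrays (log2 change 1.03, SE 0.12, limma adjusted p = 0.00829), and as for Hp the highest quiescent value was in array 2. The median change of these 17 genes was 0.00. By lobular zone, 1 of 13 periportal genes rose and 0 of 19 pericentral genes passed in limma, where 5 and 4 had an unadjusted p under 0.05. The periportal gene was Ctsc, a lysosomal protease that is not restricted to hepatocytes (0.49, adjusted p = 0.0112), with an r of -0.34 within groups. The lists share some genes, so their counts are not independent.

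Markers of other cells were read in the same arrays, and their list means were set against the mean of the 31 genes as a description. The stellate identity list had a mean log2 level between 13.22 and 13.26 in reverted arrays and between 13.30 and 13.35 in quiescent arrays, which did not overlap. Of its 27 genes 4 had a higher mean in reverted cells, and Gfap fell (-0.49, limma adjusted p = 0.0182). The r of this list mean with the mean of the 31 genes was -0.57 over the 8 arrays and -0.07 with group means removed. The sinusoidal endothelial list had a mean between 8.66 and 9.11 in reverted and between 8.51 and 8.97 in quiescent arrays. Of its 25 genes 0 were called in limma and 3 had an unadjusted p under 0.05, beside 16% of all genes. The endothelial mean was highest in reverted array 4 and quiescent array 2, and its r with the mean of the 31 genes was 0.61. The Kupffer and myeloid list had a mean between 6.97 and 7.03 in reverted and between 6.95 and 7.04 in quiescent arrays, with 0 of 26 called in limma, 3 at an unadjusted p under 0.05 and an r of 0.66. In the cholangiocyte list 0 of 15 and in the lymphocyte list 0 of 17 were called in limma, with 1 and 0 at an unadjusted p under 0.05. The cholangiocyte mean lay between 7.10 and 7.16 in reverted and between 7.10 and 7.20 in quiescent arrays, and the lymphocyte mean between 6.53 and 6.58 in reverted and between 6.52 and 6.65 in quiescent arrays. Of 21 mesothelial and portal fibroblast genes 2 rose, Wt1 (1.39, adjusted p = 0.00801) and Dpt (1.69, adjusted p = 0.0174), and 7 had an unadjusted p under 0.05. Only 6 of the 21 had a higher mean in reverted cells, and the median log2 change of the list was -0.09. Their list mean lay between 7.64 and 7.83 in reverted and between 7.56 and 7.65 in quiescent arrays, with an r of 0.84 with the mean of the 31 genes. Single genes of that list had a median r of 0.08, and 0 of 21 were over 0.8. The median r of single genes was 0.14 in the Kupffer and myeloid list and 0.51 in the endothelial list. Over the 8 arrays the cholangiocyte mean had an r of 0.05 with the mean of the 31 genes, and the lymphocyte mean one of -0.13. With group means removed, the r was 0.75 for the Kupffer and myeloid list and 0.74 for the mesothelial and portal fibroblast list. It was 0.58 for the endothelial list, 0.58 for the cholangiocyte list and 0.01 for the lymphocyte list. For the mean of all genes it was 0.36. The part of these cells in the results above was not tested.

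**Figure D5:**
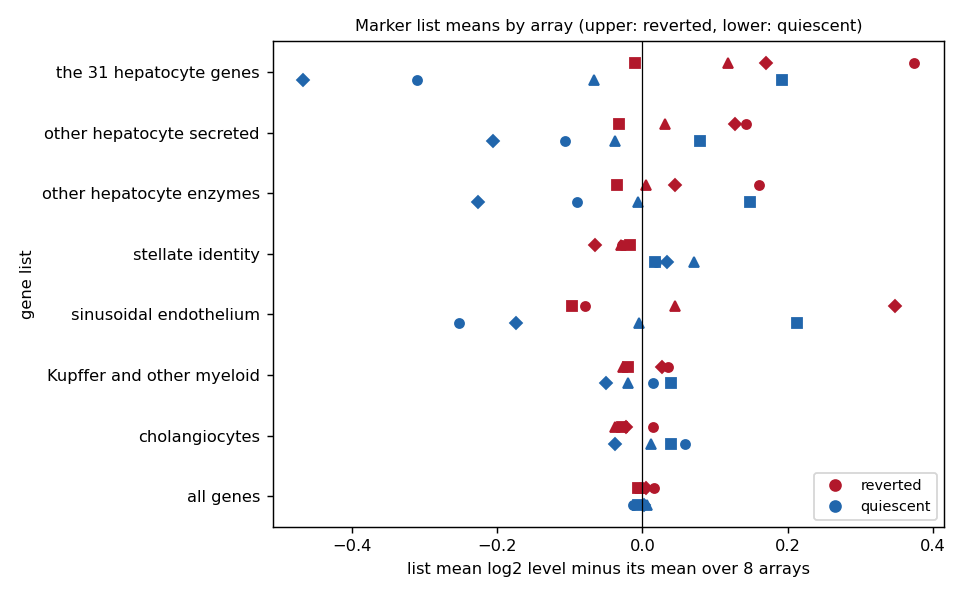
Mean log2 level of each gene list in each array minus the list's mean over the 8 arrays, with reverted arrays in red above and quiescent arrays in blue below, and symbols for replicates 1 (circle), 2 (square), 3 (triangle) and 4 (diamond). The list means of other secreted proteins and of other enzymes are lowest in quiescent array 4 and highest in reverted array 1, as for the 31 genes. The stellate list separates the groups within a range of 0.14, and the endothelial list spans 0.60 with reverted array 4 highest.

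The 4 genes with a negative r, together with Hp and Hnf4a, were compared with list means over the 8 arrays, 30 values of r in all for 6 genes and 5 lists. The lists were the stellate, endothelial, Kupffer and myeloid, and mesothelial and portal fibroblast lists, and a list of 23 immediate early genes. Apoc1 had an r of 0.86 and Trf one of 0.72 with the stellate identity mean, and Hp had one of -0.90. With the Kupffer and myeloid mean, Apoc1 had -0.13 and Trf 0.15, while Hnf4a had 0.89. Itih3 had an r of 0.02 with the stellate mean and -0.54 with the endothelial mean, and Itih4 had -0.37 and -0.35. The stellate mean itself separates the groups, as do Apoc1, Trf and Hp, so their r with it includes the group difference.

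Of the 142 genes called changed in limma, 0 had an r over 0.8 with the 31-gene mean once group means were removed. Of all genes 3.56% did. A call needs little scatter within groups, and a gene that follows the 31-gene mean there carries added scatter. The low count is thus partly set by the calling, and nothing is concluded from it. The called members Trf and Hp lay just under that cut, at 0.795 and 0.773. Without that removal, 1 called gene had an r over 0.8 over all 8 arrays. It was Hp (0.82), itself a member of the set.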

How the data were processed

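Per the labels' protocols, 150 ng of RNA was amplified, biotin-labelled and hybridised to an Affymetrix whole-transcript mouse array. The authors deposited log2 values from RMA, per the submitters' processing notes, and neither the RMA version nor a genome build is given in the sources used here. Of 35556 probe sets, 0 had a missing value, and 0 columns lacked a sample. The platform annotation gives 21789 probe sets a single gene symbol, 1621 several and leaves 12146 unnamed. This left 19938 genes, and no filter on dim genes was applied.

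The 2-sided comparison used limma 3.58.1 (lmFit, then eBayes) under R 4.3.3 without covariates, with Benjamini-Hochberg adjustment over all genes. Tables and plots used Python 3.11.15, pandas 2.3.3 and matplotlib 3.10.9. The fit was tested on simulated data. Values array by array follow a rule (the 4 brightest and 4 dimmest genes, and called genes). The rule also takes the 6 largest and the 4 smallest or most negative changes. Fabp1, Hpx, Cps1, Cyp2e1, Pck1, Tat, Hnf4a, Hal and Itih4 were added after their values were seen. A motif that was also searched is not reported here. Genes outside the set are the 12 with the highest r, without predicted or unnamed genes, and annotated neighbours. For other lists, up to 4 genes with the smallest p could be named. The members and lists were chosen with earlier results of these data known. Background signals were not used here, so dim genes may change by more than their values show. Precision is limited by the number of arrays. Alternatives were quantile normalization, median centring, filters on dim genes, the mean of probe sets, variance trend, array weights, the replicate block and leaving out each array.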

Additional observations from a re-analysis of the deposited data

Results flagged for a closer look

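Of 64 groups of 4 values examined (each of the 31 genes and their mean, in reverted and in quiescent cells), 1 held an array far from the others. For Hp, quiescent array 2 stood at 7.99 while the other 3 quiescent arrays lay between 7.37 and 7.42, and its gap to the nearest of them was 0.926 of the group's range. Chance alone would mark about 1 in 20 such groups. Quiescent array 2 was also the highest quiescent array in the mean of the 31 genes, and without it Hp had a log2 change of 0.95 (limma adjusted p = 0.00269).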

How the results depend on the processing

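The number of genes called changed was 142, and it was 219 after quantile normalization, 306 with array weights and 63 with the replicate block, and between 54 (without reverted array 4) and 247 (without quiescent array 4) with an array left out, with 59 without reverted array 3 and 73 without quiescent array 1. The count of hepatocyte genes called higher was 1, and it was 0 without the lower 50% of genes by level, which removes Hp, and 0 with the replicate block, and between 0 and 1 with an array left out. The count called lower was 1, and it was 0 with the replicate block and between 0 and 1 with an array left out. The replicate numbers are not stated to pair the samples, and the deviations of same-numbered arrays had correlations between -0.15 and 0.08. With that block the adjusted p was 0.110 for Hp and 0.133 for Trf. The median log2 change of the 31 genes kept its sign under all alternatives run, from 0.29 with array weights to 0.42 without the lower 50% of genes, and between 0.19 and 0.44 with an array left out. The number of genes with an r over 0.8 was 23 of 31, and it was 20 after median centring and 21 after quantile normalization. It was 14 of 18 without the lower 50% of genes and between 15 (without quiescent array 4) and 24 of 31 with an array left out. These alternatives for r were chosen after seeing the data. The log2 change moved by over 1.5 times for 14 of the 31 genes with some array left out. Small changes turned sign. Arg1 was at 0.036 after quantile normalization and between -0.094 and 0.083 with an array left out. Hnf4a was at -0.0024 with array weights and between -0.016 and 0.18 with an array left out. With an array left out, Itih1 lay between -0.00033 and 0.13 and Itih3 between -0.034 and 0.15. The cause of these shifts was not tested. Dim probe sets limit what the smaller changes can show.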
